A study of Mus musculus with 9 samples.

Results

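HT22, an immortalised line of murine hippocampal cells, was compared here in 2 of the 3 conditions of the study. Control cells were without treatment, and OGE cells went through 2 h of oxygen and glucose deprivation (OGD) and 24 h of reoxygenation with hiPS-MSC-EVs, the extracellular vesicles of mesenchymal stem cells made from human induced pluripotent stem cells. The third group, OGP, had the same OGD and reoxygenation with PBS and is given only as a value beside the others. All cells were of genotype WT and of 1 line, and each group had 3 RNA-seq libraries, so that 6 of the 9 libraries enter the comparison. No library came from cells that had vesicles without OGD, so what the vesicles did and what OGD and reoxygenation did cannot be told apart from OGE and control alone. The labels give standard medium for the reoxygenation, the study's methods give medium with exosome-free serum, without serum or with vesicles, and neither says which medium the control cells had in those hours or how much of the vesicles the sequenced cells received. The libraries are biological replicates in the study's words, whether of separate cultures is not stated, and p-values then measure the spread between these libraries, which may be technical. The question was how far cells that had vesicles after OGD still differed from cells that never had OGD.

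OGD with reoxygenation is a culture model of ischemic stroke. Lack of oxygen stabilises HIF-1, which raises glycolytic enzymes and angiogenic factors, and a burdened endoplasmic reticulum (ER) starts the unfolded protein response, which raises chaperones. Immediate-early genes such as Fos and Egr1 answer growth factors and stress through MAP kinases, and interferon-stimulated genes (ISGs) encode the antiviral proteins that STAT2 and IRF transcription factors switch on. Mesenchymal stem cell vesicles carry proteins and RNAs and are studied as a treatment of ischemic injury.

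OGE cells differed from control cells in 1519 of 13245 genes tested, which is 11.5%, and 681 of these differentially expressed genes (DEGs) were higher and 838 lower. The higher DEGs are 5.14% and the lower DEGs 6.33% of the genes tested. Genes were called DEGs at an adjusted p of 0.05 or less by limma and a change of 1.5-fold or more. Expression is in FPKM, reads per kilobase of gene scaled to the size of the library, and fold changes are differences of log2(FPKM + 0.5), so that they understate the change of genes with low values. The median size of the difference among the DEGs was 0.85 on the log2 scale, 22 genes were higher and 46 lower by at least 4-fold, and the median over all genes tested was -0.0034. For 7467 genes, 56.4% of those tested, the 95% interval of the difference lay inside a fold of 1.5 either way. The 3 OGE and 3 control libraries did not overlap in 5066 genes, which is 38.2%, and in 1493 of the DEGs. In cultures of this kind fewer cells of a type and less RNA per cell cannot be told apart.

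**Figure D1:**
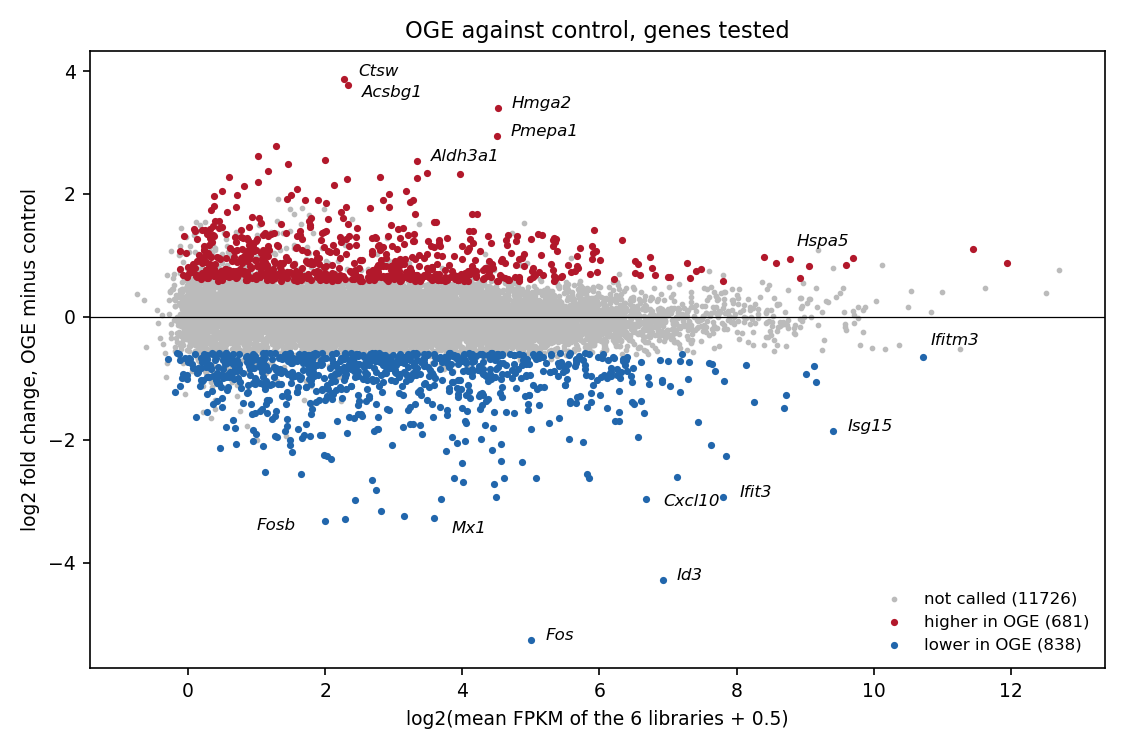
Each point is 1 of 13245 genes, with the log2 of its mean FPKM over the 6 libraries plus 0.5 on the horizontal axis and the log2 fold change of OGE minus control on the vertical axis. The 681 higher DEGs are red, the 838 lower DEGs blue and the 11726 other genes grey, and Fos at -5.25 and Id3 at -4.28 lie lowest.

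The 6 libraries held 15026700 to 18506865 reads in genes. Pearson's r of log2(FPKM + 0.5) was 0.969 to 0.987 within the control libraries, 0.979 to 0.988 within the OGE libraries and 0.949 to 0.963 between the groups. The first principal component, 53.5% of the variance, separated the groups, and on the second, 22.8%, control replicate 1 stood at 33.8 against -15.5 and -10.4 for the other control libraries. Without control replicate 1 there were 2017 DEGs, 915 higher and 1102 lower. Of 14 neuronal markers 3 had a mean of at least 0.5 FPKM (Tubb3, Map2 and Eno2). The 14 summed to 13.5 to 16.1 FPKM in control and 18.1 to 22.2 FPKM in OGE. Tubb3 rose from 7.95 ± 1.52 to 14.0 ± 2.16 FPKM. Map2 was at 1.32 ± 0.315 and 1.34 ± 0.129 FPKM, and Eno2 at 5.49 ± 0.0571 and 4.14 ± 0.499 FPKM, and neither was called. Of 7 mesenchymal markers 6 reached 0.5 FPKM, and the 7 summed to 701 to 1019.5 and 410 to 488 FPKM, mostly Col1a1. Among these 6, Col1a1 was called lower and Nt5e higher, from 1.29 ± 0.0974 to 4.57 ± 0.431 FPKM. The defining neuronal genes Rbfox3 and Dcx, the microglial genes Aif1 and Ptprc and the endothelial gene Pecam1 had a mean below 0.5 FPKM, so few neuronal markers support the label of a hippocampal cell in these libraries. Of 5 neural progenitor markers 3 reached a mean of 0.5 FPKM, Vim, which mesenchymal cells also express, Nes and Pax6, and none of the 3 was called. Vim was at 483 ± 33.7 FPKM in control and 441 ± 30.2 FPKM in OGE. Nes was at 36.5, 42.7 and 42.4 FPKM in control and 45.7, 50.1 and 57.6 FPKM in OGE, and Pax6 at 3.98, 4.46 and 4.35 and 6.12, 5.98 and 6.66 FPKM. The summed level of these markers, mostly Vim, was 497 to 565 FPKM in control and 482 to 531 FPKM in OGE. The astrocyte markers summed to 9.35 to 11.1 FPKM in control and 2.83 to 3.28 FPKM in OGE, nearly all from Slc1a3, the microglial markers to 12.2 to 17.4 and 9.02 to 10.2 FPKM, nearly all from Tmem119, and the oligodendrocyte and endothelial markers stayed below 1 FPKM in every library. The part of other cell types in the results was not tested.

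Several transcription factors of the immediate-early response fell, and Fos had the lowest log2 fold change of all 13245 genes. Fos, a subunit of AP-1 at chr12:85473890-85477273, was at 54.4, 83.1 and 49.4 FPKM in the control libraries and at 1.05, 1.26 and 1.01 FPKM in the OGE libraries, a log2 difference of -5.25 ± 0.18 (SE, n = 3 a group, adjusted p = 8.0e-07 by limma). Its level in OGP was 69.4, 71.7 and 59.6 FPKM, so it was low in the OGE libraries alone. Fosb, another AP-1 subunit, fell from 6.77 ± 2.15 to 0.208 ± 0.061 FPKM (mean ± SD, n = 3), and Jun from 49.7 ± 12.1 to 13.4 ± 0.186 FPKM. Egr1, a zinc finger factor, held 52.8, 67.3 and 52.7 FPKM in control and 9.38, 9.51 and 7.98 FPKM in OGE (-2.61 ± 0.11, adjusted p = 1.6e-06), and its OGP libraries lay at 55.5, 57.2 and 56.6 FPKM. Ier2, an immediate-early nuclear protein, went from 211, 278 and 236 FPKM to 38.9, 37.3 and 41 FPKM (-2.60 ± 0.11). No OGE library reached the lowest control library in any of these genes. The rule that named Fos and Fosb required this, and 38.2% of all genes tested had no overlap between the groups.

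Arc, the synaptic regulator of receptor uptake, was at 10, 14.7 and 11.7 FPKM in control and 0.935, 1.1 and 0.717 FPKM in OGE, and Btg2, an antiproliferative gene, at 17.1, 30 and 20.2 and 2.66, 1.89 and 2.58 FPKM. The nuclear receptor Nr4a1 (-2.26), the mRNA decay factor Zfp36 (-2.16), the phosphatase Dusp1 (-1.95) and the factors Egr2 (-1.92), Egr3 (-1.78) and Klf2 (-1.83) fell as well. In all, 16 of 36 immediate-early and MAP kinase feedback genes tested were lower and 4 higher, with a list median of -0.27. These are 44.4% and 11.1%, against 6.33% and 5.14% of all genes tested. The 4 that rose were Dusp4, a nuclear MAP kinase phosphatase, the ETS factors Etv4 and Etv5, and Spred2, an inhibitor of Ras signalling. Dusp4 went from 1.5, 1.98 and 2.16 to 10, 9.22 and 14 FPKM and Etv5 from 1.13, 1.18 and 1.44 to 5.83, 5.5 and 6.2 FPKM, and in OGP they were at 5.38 ± 0.753 and 6.17 ± 0.577 FPKM. The feedback genes Dusp6 (-0.24) and Dusp5 (-0.31) and the factor Myc (0.06) did not pass the test.

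**Figure D2:**
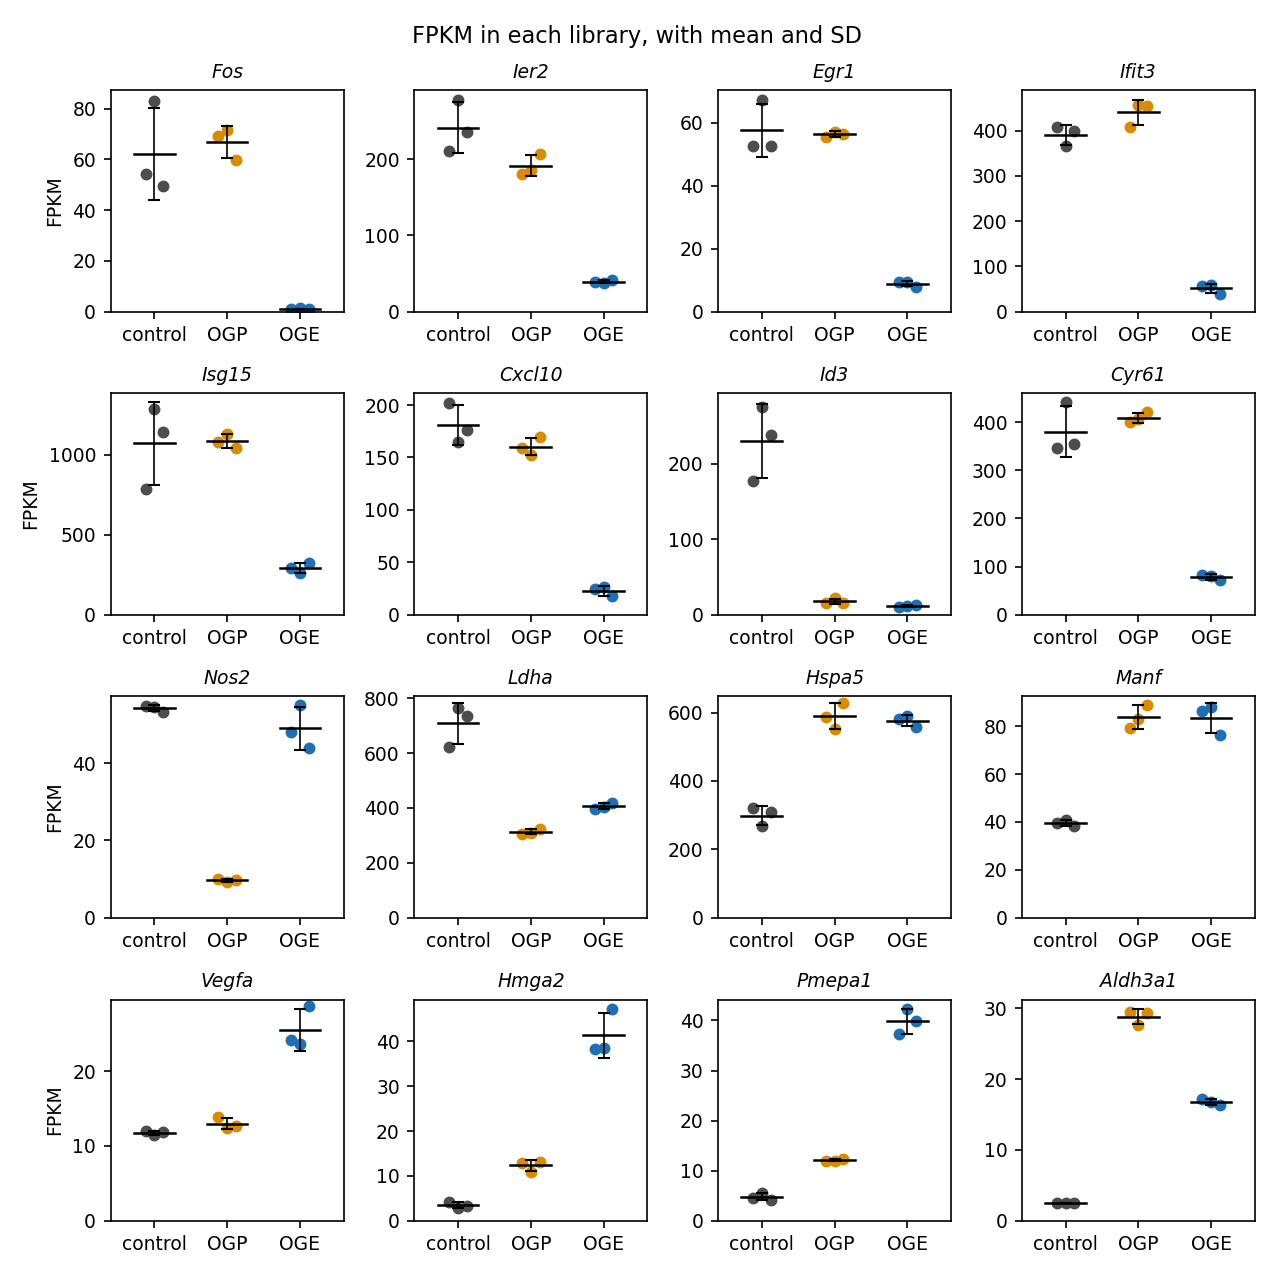
FPKM of 16 genes in each library of control, OGP and OGE cells, with 1 point per library, a line at the mean and error bars of 1 SD (n = 3); every axis starts at 0. The OGE libraries lay below the control libraries for Fos, Ier2, Egr1, Ifit3, Isg15, Cxcl10, Id3, Cyr61 and Ldha, overlapped them for Nos2, and lay above them for Hspa5, Manf, Vegfa, Hmga2, Pmepa1 and Aldh3a1.

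Most ISGs fell. Of 54 tested, 48 were lower in OGE than in control, 1 was higher and 5 did not pass. The lower are 88.9% and the higher 1.85%, against 6.33% and 5.14% of all genes tested. The median was -0.97 against -0.0034 for all genes tested. In OGP the median of the same genes against control was 0.23, and the control libraries are the same in both comparisons. The list was drawn up when a lower level of such genes in OGE than in OGP was already known. Leaving out any 1 library left 44 to 50 lower, and 2 were higher without control replicate 2, control replicate 3 or OGE replicate 3, after quantile normalization or with voom. No source states that interferon was added, and the control cells held many of these transcripts at a high level.

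Printed first are promoter stretches of 4 of these genes, because 23 of the 35 ISGs with a promoter in the RefSeq table (GRCm38.p6) held the letters GAAANNGAA of the interferon-stimulated response element on either strand, in a window from 250 bases before to 50 bases after the start. That is 65.7%, against 7.09% of the 7240 genes tested that had a promoter, 14.7% of the 455 lower DEGs and 7.85% of the 344 higher DEGs with a promoter there. All 23 were lower in OGE (median -1.16), as were 10 of the 12 without the letters (median -0.77). Capitals mark the letters found, and each stretch runs 5′ to 3′ on the gene's own strand.
Ifit3, chr19:34583359-34583450 (+ strand): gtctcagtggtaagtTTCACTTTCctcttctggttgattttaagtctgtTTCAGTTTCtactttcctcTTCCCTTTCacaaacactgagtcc
Ifit1, chr19:34640765-34640828 (+ strand): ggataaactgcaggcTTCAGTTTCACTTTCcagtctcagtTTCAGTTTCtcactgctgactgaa
Isg15, chr4:156200861-156200911 (- strand): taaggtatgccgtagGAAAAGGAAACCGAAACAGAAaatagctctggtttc
Rsad2, chr12:26456548-26456586 (- strand): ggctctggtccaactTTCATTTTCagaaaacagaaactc
Ifit3, Ifit1 and Isg15 had 3 matches each and Rsad2 had 1, and in Ifit1 and Isg15 neighbouring matches overlap. Related genes of a family share sequence, and a match is a description of letters, not of a bound factor.

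Ifit3, which binds viral RNA together with Ifit1, was at 408, 366 and 399 FPKM in control and 57.3, 58.1 and 39.4 FPKM in OGE (-2.93 ± 0.14, adjusted p = 2.7e-06). Its OGP libraries held 409, 457 and 454 FPKM, so that the OGE libraries alone were low. Isg15, a ubiquitin-like modifier, went from 785, 1288 and 1139 to 289, 259.8 and 320.4 FPKM, and Mx1, a GTPase that blocks viral replication, from 26.3, 17 and 20.9 to 2.04, 1.97 and 1.26 FPKM (-3.27 ± 0.18). Rsad2 (viperin) fell from 48.4 ± 5.75 to 9.07 ± 1.47 FPKM and Cmpk2, its neighbour on chromosome 12, from 24 ± 0.913 to 5.43 ± 0.584 FPKM. Ifit3b and Ifit3 are near-identical copies, so the split of reads between them is uncertain, and both were lower (-2.63 and -2.93).

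Regulators of the response fell too. Irf7, a transcription factor that amplifies it, went from 56, 73.6 and 75.1 to 25.4, 25.1 and 25.6 FPKM (-1.40 ± 0.11), and Stat2 and Usp18 changed by -1.27 and -1.39. Irf9, a partner of STAT2, did not pass at -0.52. The RNA sensors Ifih1 (-1.02) and Ddx58 (-0.69) and the kinase Eif2ak2 (-0.94) fell as well, by less than Ifit3. Among abundant members, Ifitm3, which blocks virus entry, was at 1914, 2142 and 2146 FPKM in control and 1336, 1325 and 1284 FPKM in OGE (-0.65 ± 0.09), and lost its call when no filter on low values was used. Bst2 (tetherin) was at 556, 727 and 743 and 344, 354 and 361 FPKM. The 1 member that rose was Ifitm1, a relative of Ifitm3, at 0.838, 0.916 and 1.52 FPKM in control, 4.61, 5.67 and 5.83 FPKM in OGE and 3.79, 4.74 and 4.72 FPKM in OGP.

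**Figure D3:**
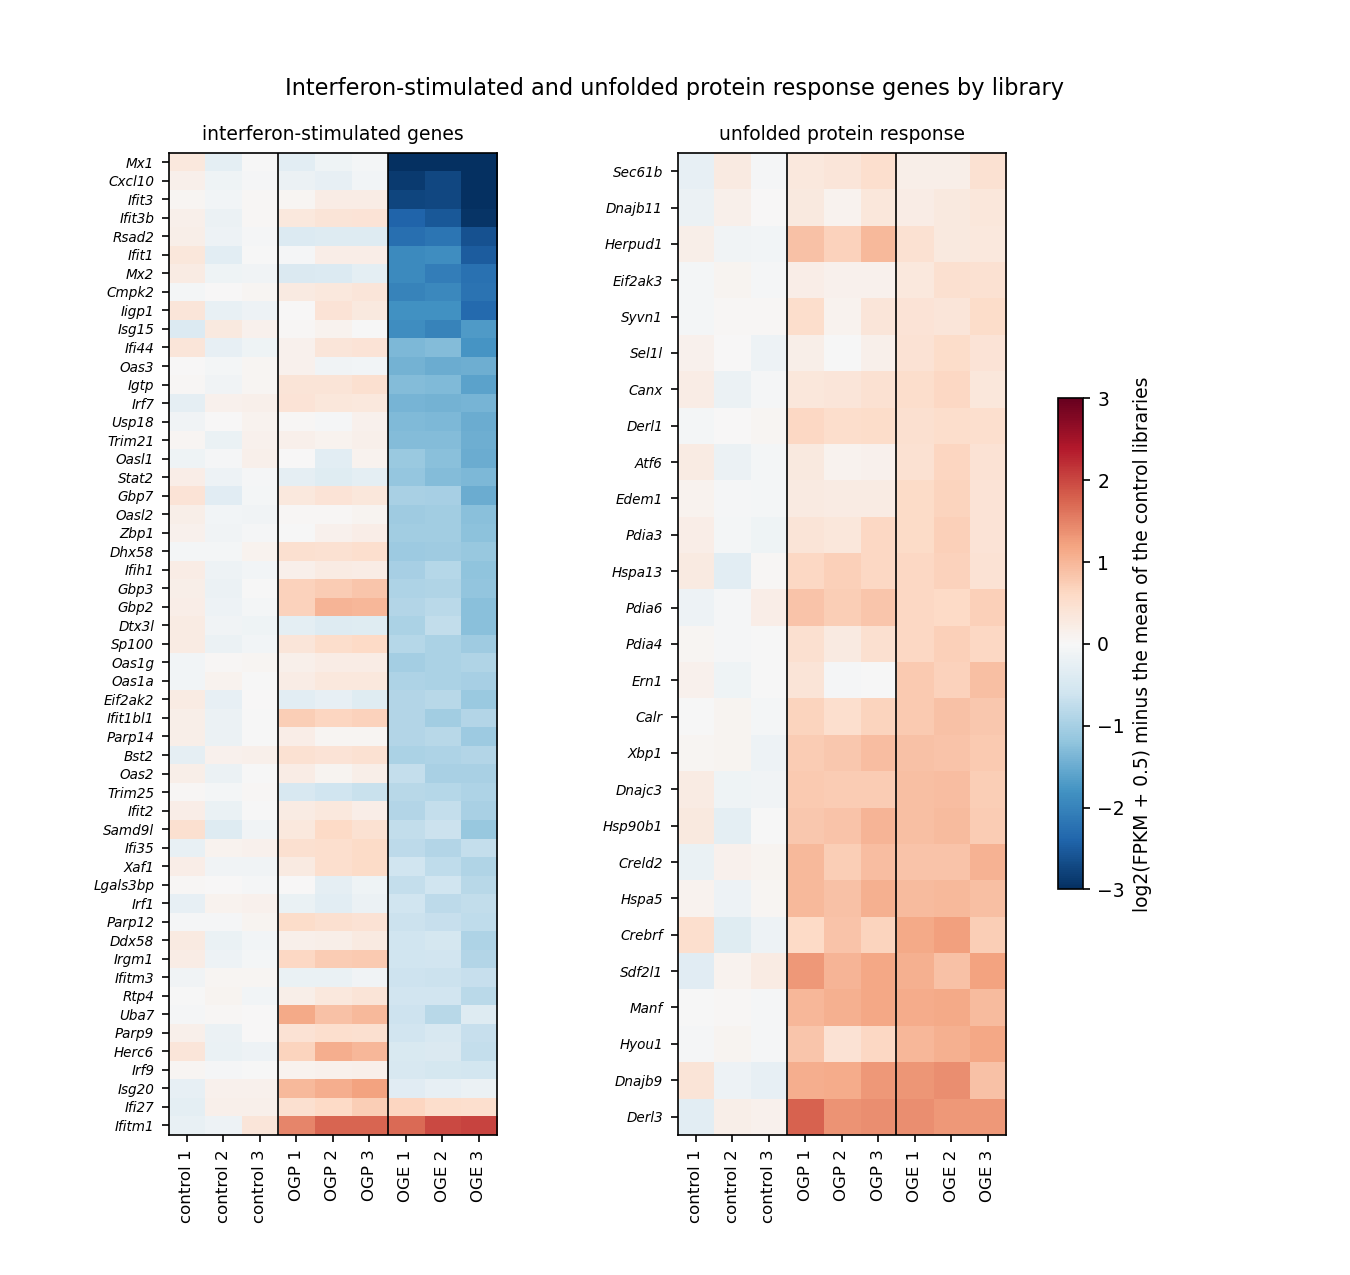
Log2(FPKM + 0.5) minus the mean of the 3 control libraries, for 53 of the ISGs (left) and 27 unfolded protein response genes (right) in each of the 9 libraries, ordered by OGE minus control; colours stop at -3 and 3. In the OGE columns 47 of these ISGs were called lower and Ifitm1 higher, and 15 unfolded protein response genes were called higher.

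Genes of antigen presentation on MHC class I were mostly lower. Of 20 genes tested 12 were lower (60%, against 6.33% of all genes tested) and 1 was higher (5%, against 5.14%). The median was -0.68, and in OGP the median against control was 0.18. The immunoproteasome subunit Psmb9 was at 8.45, 12.4 and 11.6 FPKM in control and 3.28, 3.55 and 3.35 FPKM in OGE, the peptide transporter Tap1 at 24, 32.1 and 30.5 and 11.9, 10.7 and 9.93 FPKM, and the heavy chain H2-K1 at 258, 266 and 272 and 147, 159 and 129 FPKM. Each had no overlap between the groups, as had 38.2% of all genes tested. H2-Q4 (-1.17), H2-T22 (-0.93), H2-D1 (-0.79), Psmb8 (-1.28) and Psmb10 (-0.90) fell, and reads of these similar heavy chain genes may be split between copies. The light chain B2m (-0.46) and the transactivator Nlrc5 (-0.44) did not pass. The 1 that rose, Calr, is a general ER chaperone. Leaving out any 1 library left 11 or 12 lower, and there were 3 higher members without control replicate 1 or after quantile normalization and 2 without OGE replicate 3 or with voom.

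Several cytokines and chemokines fell. Of 26 NF-kB and chemokine genes tested, 8 were lower and 3 higher, with a median of -0.15. These are 30.8% and 11.5%, against 6.33% and 5.14% of all genes tested. Cxcl10, an interferon-induced chemokine for T cells, was at 202, 164 and 176 FPKM in control and 24.2, 26.7 and 17.7 FPKM in OGE (-2.97 ± 0.14), and the OGP libraries held 159, 153 and 169 FPKM. Ccl5 went from 27.8, 30.6 and 32.9 to 7.53, 8.3 and 6.11 FPKM and Cxcl1, a neutrophil chemokine, from 179, 164 and 144 to 78.3, 83.8 and 69.2 FPKM. The neuronal chemokine Cx3cl1 (-0.96) and Il6 (-1.75) were lower. Ccl2, a monocyte chemokine, was higher at 613, 593 and 565 against 349, 397 and 401 FPKM. Its log2 fold change of 0.63 lay near the threshold of 0.585, and it was not called without control replicate 1, with or without the OGP libraries. Tnfaip2 rose from 2.4 ± 0.396 to 6.74 ± 0.813 FPKM, while the NF-kB subunits Rela (0.13) and Nfkb1 (-0.09) and the inhibitor Nfkbia (-0.15) did not pass.

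The ID genes and several ligands of the TGF-beta family were low. The ID proteins block basic helix-loop-helix factors and are raised by BMPs. Id3 was at 177, 275 and 239 FPKM in control and 9.7, 10.9 and 13.1 FPKM in OGE (-4.28 ± 0.19, adjusted p = 2.1e-06). Id1 went from 79.9, 104 and 103 to 16.1, 13.6 and 17.7 FPKM and Id2 from 33.4, 26.3 and 22.7 to 4.05, 3.42 and 3.99 FPKM. In OGP they were at 17.5 ± 3.5, 9.81 ± 1.53 and 4.83 ± 0.737 FPKM for Id3, Id1 and Id2, below every control library. Bmp4 fell from 15.6 ± 1.5 to 4.25 ± 0.456 FPKM, Tgfb2 from 3.7 ± 0.43 to 0.657 ± 0.166 FPKM and Tgfb3 from 21.2 ± 2.28 to 8.31 ± 0.45 FPKM, and their OGP means were 12.1 ± 1.27, 2.11 ± 0.122 and 10.7 ± 0.42 FPKM. The inhibitors Smad6 (-1.41) and Fst (-1.29) fell, and the repressor Skil (1.24) and the procollagen protease Bmp1 (0.85) rose. Counts were 8 lower (33.3%, against 6.33% of all genes tested) and 2 higher (8.33%, against 5.14%) of 24 genes tested. The list median was 0.01, with 13 members above 0 and 11 below. Pmepa1, a membrane protein that dampens TGF-beta signalling and was not on that list, rose from 4.51, 5.54 and 4.23 to 37.3, 42.2 and 40 FPKM (2.94 ± 0.10), with OGP at 12.1 ± 0.22 FPKM.

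Acute phase and STAT3-linked genes were lower in 13 of 37 genes tested and higher in 3, with a median of -0.33. These are 35.1% and 8.11%, against 6.33% and 5.14% of all genes tested. Lcn2, an iron-binding acute phase protein, was at 30.2, 20.4 and 24 FPKM in control, 4.0, 4.21 and 2.68 FPKM in OGE and 2.6, 2.79 and 3.23 FPKM in OGP. Il33, an alarmin of the interleukin-1 family, was at 46.2, 31.4 and 36.4 FPKM in control and 5.61, 5.61 and 4.71 FPKM in OGE (-2.71 ± 0.14). Orm1 (-2.25), Lbp (-1.47) and Serpina3n (-1.35), which encode secreted acute phase proteins, were lower. Stat3 itself was at 32.8, 33.1 and 35.2 FPKM in control, 21.6, 22.7 and 21.8 FPKM in OGE and 12.1, 11.6 and 11.5 FPKM in OGP. Its log2 fold change of -0.60 ± 0.07 was close to the threshold of 1.5-fold, 0.585 on the log2 scale. Stat3 was not called without control replicate 3, after quantile normalization or with voom on the recovered reads. Pim1, a kinase that STAT3 can induce, was higher, at 12.8, 15 and 16.6 against 2.37, 3.93 and 4.77 FPKM, and the iron oxidase Cp rose by 1.26.

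Matrix genes were lower in 14 of 41 genes tested and higher in 6, with a median of -0.36. These are 34.1% and 14.6%, against 6.33% and 5.14% of all genes tested. Col6a1 and Col6a2, chains of collagen VI, were at 119 ± 13 and 16.4 ± 1.02 FPKM in control and 36.1 ± 1.98 and 4.02 ± 0.47 FPKM in OGE. Sparc, a collagen-binding glycoprotein, went from 589, 630.5 and 560.5 to 240.1, 274 and 224 FPKM, and Col1a1 from 622, 935 and 775 to 362, 404 and 343 FPKM with OGP at 421, 355 and 373 FPKM. Prelp, a leucine-rich proteoglycan, was at 2.42, 2.87 and 2.63 FPKM in control, 0.31, 0.359 and 0.339 FPKM in OGE and 7.14, 7.02 and 6.85 FPKM in OGP, so that OGE was below and OGP above the control libraries. Lamb1, a laminin chain, rose from 10.1, 10.9 and 10.1 to 23.8, 23.8 and 25.8 FPKM, and Spp1 (osteopontin) by 0.97. Without OGE replicate 2 there were 3 higher members. Abi3bp, a matrix protein outside the list, fell from 46.7, 35.1 and 36.3 to 4.84, 6.03 and 3.55 FPKM (-2.92 ± 0.18).

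**Figure D4:**
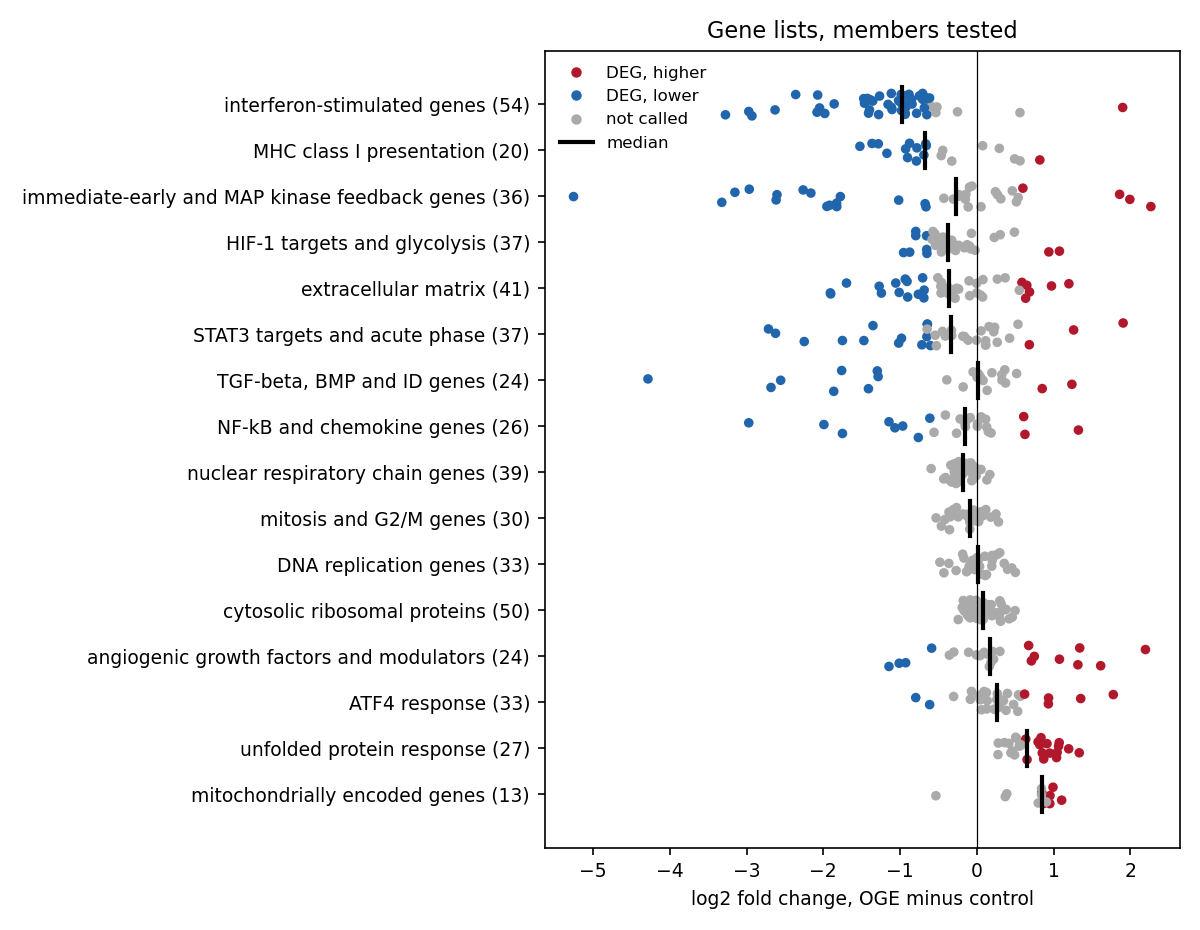
Log2 fold change of OGE minus control for each member tested of 16 gene lists, with the number of members in brackets. Red points are higher and blue points lower DEGs, grey points were not called, and the black bars, at -0.97 for the ISGs and 0.66 for the unfolded protein response, are list medians.

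Of 25 YAP and SRF target genes, which report on cell tension and actin, 3 were lower and 2 higher, with a median of -0.21. These are 12% and 8%, against 6.33% and 5.14% of all genes tested. Cyr61, a matricellular YAP target, went from 345, 441 and 354 to 82.8, 79.8 and 72 FPKM (-2.27 ± 0.11), with OGP at 400.5, 407 and 421 FPKM. Its relative Ctgf moved the other way, from 7.47, 9.11 and 7.28 to 13.5, 16.1 and 11.5 FPKM, and was far higher in OGP at 43.7, 44.8 and 52.8 FPKM. Acta2, smooth muscle actin, was at 145 ± 11.2 FPKM in control, 89.7 ± 13.1 FPKM in OGE and 276 ± 9.52 FPKM in OGP, and was not called without OGE replicate 3 or after quantile normalization. Without control replicate 1 there were 6 lower and 4 higher, and after quantile normalization or with voom also 4 higher.

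Of 37 HIF-1 targets and glycolysis genes tested, 7 were lower (18.9%, against 6.33% of all genes tested) and 2 higher (5.41%, against 5.14%). In this list 32 had a log2 fold change below 0, and the median was -0.38, against -0.59 for OGP minus control. Ldha, which turns pyruvate into lactate, was at 623, 764 and 736 FPKM in control, 396, 403 and 419 FPKM in OGE and 307, 310.3 and 323 FPKM in OGP, so that the OGE libraries lay between the other groups. Pfkfb3, which makes the activator of phosphofructokinase, was likewise at 5.65, 4.52 and 5.17, 2.51, 2.46 and 2.21 and 1.41, 1.25 and 0.886 FPKM in the same order of groups. Gapdh (-0.57), Pgk1 (-0.54) and the lactate exporter Slc16a3 (-0.58) did not reach the 1.5-fold threshold. The 2 that rose were Vegfa, the vascular growth factor, from 12, 11.5 and 11.9 to 24.1, 23.6 and 28.7 FPKM (1.08 ± 0.09, adjusted p = 4.4e-05), and Hk2, a hexokinase, from 5.84, 6.4 and 6.73 to 11.6, 12.6 and 13.6 FPKM. Their OGP levels, 13 ± 0.783 and 6.72 ± 0.959 FPKM, were near those of control. The count of 7 was 12 without control replicate 1, 4 without OGE replicate 2 and 11 without OGE replicate 3.

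Angiogenic factors had a median of 0.17 over 24 genes tested. In this list 4 were lower (16.7%, against 6.33% of all genes tested) and 8 higher (33.3%, against 5.14%). Besides Vegfa these were Vegfc (1.32), the growth factors Fgf2 and Hgf (1.34), Pdgfc (0.71), Areg (0.68), Angptl2 (0.75) and Angptl4. Fgf2 was at 0.532, 0.487 and 0.484 FPKM in control and 2.26, 3.13 and 2.38 FPKM in OGE, and Angptl4, an inhibitor of lipoprotein lipase, at 0.209, 0.287 and 0.196 and 2.73, 2.88 and 2.94 FPKM. The OGP means of these genes were 0.789 ± 0.0706 and 0.58 ± 0.112 FPKM. The 4 lower genes were Cxcl12, from 49, 51.4 and 49.5 to 22.8, 23.7 and 20.7 FPKM, the antiangiogenic Thbs1, from 61.1 ± 5.67 to 30 ± 2.37 FPKM with OGP above control at 96.6 ± 7.46 FPKM, the receptor Flt1 (-0.93) and Vegfd (-0.59). Vegfd lay at the 1.5-fold threshold and was not called without control replicate 1 or with voom, which left 3 lower. Without control replicate 3 there were 7 higher.

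Many genes of the unfolded protein response rose. All 27 genes tested had a log2 fold change above 0, and the median was 0.66. Of them 15 were called higher, 55.6% against 5.14% of all genes tested. None was called lower (none lower either at an unadjusted p under 0.05 or with voom). In OGP the median against the same control libraries was 0.63. Hspa5 (BiP), the master chaperone of the ER, was at 322, 267 and 308 FPKM in control, 580.3, 589 and 558 FPKM in OGE and 586, 553 and 629 FPKM in OGP (0.95 ± 0.10 for OGE minus control, adjusted p = 1.5e-04). Manf, a secreted ER stress protein with neurotrophic action, went from 39.5, 40.9 and 38.4 to 86.3, 88 and 76.3 FPKM, and Hyou1, an ER chaperone, from 25.5, 27.9 and 25.6 to 52.5, 55.7 and 59.7 FPKM with OGP at 47.2, 35.9 and 40.7 FPKM. Xbp1, the factor that drives part of this response, went from 34, 35 and 29.7 to 60.3, 60.1 and 56.6 FPKM. The chaperones Calr (0.82), Hsp90b1 (0.87) and Dnajc3 (0.85), the degradation factor Derl3 (1.34) and the sensor Ern1 (0.80) rose, and the sensors Atf6 (0.51) and Eif2ak3 (0.42) did not pass.

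Promoter stretches of 3 of these genes are shown because they hold a rare element. The ER stress element, CCAAT and CCACG with 9 bases between them, was found on either strand in 14 of the 7240 promoters, 0.193%, and in 9 of the 22 available for this list. Of these 9, 7 belong to genes called higher and none to genes called lower (median 0.85). Of the 13 listed genes without it, 6 were called higher and none lower (median 0.56). Of the 344 higher DEGs with a promoter 8 held it, 2.33%, and 7 of the 8 are the genes of this list just counted. Of the 455 lower DEGs with a promoter 0% held it. The motif with both parts was searched after the results were known, and CCACG alone was in 81.8% of these 22 promoters and 49.1% of all. Capitals mark the element in 3 of them, which in Creld2 and Calr lies on the opposite strand.
Hspa5, chr2:34772010-34772058 (+ strand): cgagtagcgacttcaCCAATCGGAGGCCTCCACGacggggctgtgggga
Creld2, chr15:88819505-88819553 (+ strand): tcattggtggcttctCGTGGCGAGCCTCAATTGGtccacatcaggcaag
Calr, chr8:84847060-84847108 (- strand): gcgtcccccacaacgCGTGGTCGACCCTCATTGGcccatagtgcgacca
Creld2, a secreted ER chaperone, was at 54.5, 68.4 and 65.9 FPKM in control and 113, 115 and 129 FPKM in OGE, and Calr (calreticulin) at 382, 406 and 368 and 661, 708 and 673 FPKM.

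The ATF4 response answers amino acid shortage and other stress by raising transporters and synthesis enzymes. Of 33 genes tested 5 were higher (15.2%, against 5.14% of all genes tested) and 2 lower (6.06%, against 6.33%). The median was 0.27 against 0.49 in OGP minus control. Slc7a11, the cystine importer, was at 2.88, 2.07 and 2.14 FPKM in control, 9.31, 9.33 and 9.11 FPKM in OGE and 5.88, 5.36 and 5.17 FPKM in OGP. Cth, which makes cysteine, went from 4.99, 4.73 and 5.38 to 15.2, 12.9 and 12.9 FPKM and Nupr1, a stress-induced nuclear protein, from 14.6, 16.7 and 16.5 to 32, 29.8 and 30.8 FPKM. Trib3, an inhibitor of ATF4 signalling, was at 14.9 ± 1.64 FPKM in control, 23.4 ± 3.72 FPKM in OGE and 44.3 ± 3.34 FPKM in OGP, and its call was lost without control replicate 1 or OGE replicate 3. Atf4 (0.35), Ddit3 (0.38) and Asns (0.29) did not pass. The lower genes were Ddit4 (-0.80) and Chac1 (-0.61), and neither was called without control replicate 2, control replicate 3 or OGE replicate 2. With voom on the recovered reads 8 were higher, and 1 was lower without OGE replicate 1 or OGE replicate 3.

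Among 33 NRF2 and glutathione genes 3 were higher and 1 lower, with a median of 0.11, a share near that of all genes. Aldh3a1, an aldehyde dehydrogenase, was at 2.45, 2.52 and 2.46 FPKM in control, 17.2, 16.8 and 16.3 FPKM in OGE and 29.5, 27.7 and 29.4 FPKM in OGP (2.54 ± 0.06). Hmox1, heme oxygenase, went from 62, 71.3 and 66 to 119, 113 and 131 FPKM, while Nqo1 (0.37) and Gclm (0.21) did not pass. Gpx1, a glutathione peroxidase, fell from 154, 212 and 173 to 81.9, 80.1 and 82 FPKM. Without control replicate 2 there were 5 higher members, and without control replicate 1 or OGE replicate 2 there were 2 lower.

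The respiratory chain is encoded in the mitochondrial and the nuclear genome. Of 13 mitochondrially encoded genes 6 were higher and none lower (none lower at an unadjusted p under 0.05 or with voom), with a median of 0.85. The 6 are 46.2%, against 5.14% of all genes tested. mt-Nd1, a subunit of complex I, was at 2610.4, 1335 and 1503 FPKM in control and 4039, 4256 and 3041 FPKM in OGE, and mt-Cytb of complex III at 3948, 1898 and 2711 and 5495, 5596 and 4052 FPKM. Control replicate 1 was the highest control library in both, and the count of 6 was 10 without it, 3 without control replicate 2 or 3, 1 without OGE replicate 1 and 3 without OGE replicate 2, 2 after quantile normalization or without a filter on low values and 3 with the 6 libraries alone. Mitochondrial genes took 1.62% ± 0.62 of the reads in control and 2.58% ± 0.479 in OGE (SD, n = 3), which an exact permutation test did not separate (two-sided p = 0.2, the smallest possible being 0.1). Of 39 nuclear respiratory chain genes limma and voom called none in either direction, with 1 higher and 7 lower at an unadjusted p under 0.05. Of these genes 36 had a log2 fold change below 0, the median was -0.18, and 5 were lower without control replicate 1.

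By limma or voom no member was called among 50 cytosolic ribosomal proteins (median 0.08), 30 mitosis and G2/M genes (-0.09) and 33 DNA replication genes (0.02). At an unadjusted p under 0.05 there were 14 higher and 0 lower, 1 higher and 8 lower, and 9 higher and 3 lower of them. The mitotic kinases Aurka (45.1, 50.8 and 47.2 FPKM in control, 33.9, 33.6 and 31.1 FPKM in OGE) and Aurkb (-0.46) differed by less than 1.5-fold with adjusted p = 0.0019 and 0.0043, and the proliferation marker Mki67 differed by -0.09 (95% interval -0.50 to 0.31). Of 25 BCL2 family and caspase genes tested 1, Bak1, was lower, and its call ended without control replicate 2, control replicate 3, OGE replicate 1 or OGE replicate 2, and with a pseudocount of 1, quantile normalization, median-ratio scaling or voom. Bid, a death-promoting member, was at 10.3 ± 0.532 FPKM in control and 15.4 ± 0.485 FPKM in OGE, just under the threshold, and Bax (0.19) and Bcl2 (-0.18) did not pass. Cholesterol synthesis had 2 lower of 31 genes (Hmgcs1 and Scd1), lysosome and autophagy 1 higher (Sqstm1) and 1 lower (Tfeb) of 31, and heat shock 1 higher and 2 lower of 20. Over all genes tested 5.14% were higher and 6.33% lower. The cholesterol list had 6.45% lower, the lysosome list 3.23% each way, the heat shock list 5% higher and 10% lower, and the BCL2 list 4% lower. Without control replicate 1 there were 4 lower lysosomal genes, 1 higher and 2 lower DNA replication genes and 1 higher cholesterol gene. Leaving out OGE replicate 3 gave 1 higher gene in each of the last pair, OGE replicate 2 gave 1 higher ribosomal gene, and control replicate 3 gave 1 higher BCL2 family gene. Clock genes had 4 higher (23.5%) and 2 lower (11.8%) of 17. They were led by the repressor Bhlhe40, from 16, 15.9 and 14.3 to 39.2, 41.7 and 36 FPKM. Clock genes had 2 higher without OGE replicate 1, with a pseudocount of 1 or with the 6 libraries alone.

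The largest increases were mostly outside these lists. Hmga2, a chromatin protein of embryonic and tumour cells at chr10:120361275-120476469, was at 4.2, 2.92 and 3.34 FPKM in control, 38.4, 38.5 and 47.1 FPKM in OGE and 12.9, 10.9 and 13.2 FPKM in OGP (3.40 ± 0.14, adjusted p = 1.6e-06). Ctsw, a cathepsin, and Acsbg1, a long-chain acyl-CoA synthetase, went from below 0.5 FPKM in every control library to 8.55, 8.2 and 9.05 FPKM and 8.51, 7.72 and 10.6 FPKM. Their OGP means were 1.01 ± 0.302 and 0.692 ± 0.154 FPKM. Adam12, a membrane metalloprotease, was at 0.726, 0.674 and 0.605 FPKM in control, 6.13, 7.23 and 5.71 FPKM in OGE and 0.401, 0.531 and 0.506 FPKM in OGP. The others of the 15 were Atg9b (2.78), Tnnt2 (2.49), the R-spondin receptor Lgr6 (2.37), Gpr153 (2.34), Tcim (2.25), the nicotinic receptor subunit Chrnb1 (2.07) and the sorting receptor Sorcs2 (2.05), beside Pmepa1, Aldh3a1, Dusp4 and Angptl4. Among the 15 largest decreases outside the groups above, Rprm, a cell cycle arrest gene, was at 5.81, 9.97 and 9.47 FPKM in control and 0.422, 0.485 and 0.265 FPKM in OGE, S1pr1, the sphingosine-1-phosphate receptor, at 16.8, 16 and 13.9 and 1.09, 1.63 and 0.952 FPKM, and Ankrd55 at 9.94, 11.6 and 10.2 and 1.04, 1.35 and 1.38 FPKM. Their OGP means were 1.27 ± 0.142, 2.92 ± 0.176 and 1.51 ± 0.191 FPKM. Ptx3, a secreted pattern recognition protein and one of the most abundant DEGs, was at 556, 625 and 649 FPKM in control, 210.1, 233 and 208 FPKM in OGE and 199.96, 215 and 207 FPKM in OGP.

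In a set of genes OGE lay beyond both other groups, as a DEG of the same direction against control and against OGP. Fos, Fosb, Mx1, Btg2, Ifit3 and Cxcl10 were the lowest of these, and Acsbg1, Ctsw, Adam12, Prss46, Fam110c and Hmga2 the highest. Prss46, a serine protease, was at 2.43, 2.67 and 2.48 FPKM in control, 11.2, 11.8 and 9.43 FPKM in OGE and 0.413, 0.272 and 0.183 FPKM in OGP, so that the OGP and OGE libraries lay on opposite sides of control. Fam110c was at 0.779, 0.84 and 1.01 FPKM in control, 4.65, 4.21 and 5.15 FPKM in OGE and 1.21, 1.13 and 0.856 FPKM in OGP. Both tests of each gene use the same OGE libraries.

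Other genes were called in OGP against control while the 95% interval of OGE minus control stayed inside 1.5-fold. Nos2, the inducible nitric oxide synthase, was at 54.8, 54.4 and 53.3 FPKM in control, 48.2, 54.9 and 43.9 FPKM in OGE and 10.1, 9.26 and 9.79 FPKM in OGP (-0.15, 95% interval -0.35 to 0.05, for OGE minus control). Snai1, a repressor of epithelial genes, was at 2.9, 3.93 and 3.15, 3.56, 4.19 and 3.3 and 0.53, 0.339 and 0.379 FPKM in control, OGE and OGP. Tmeff1 (16.1 ± 0.607, 15.5 ± 0.67 and 4.72 ± 0.399 FPKM in the same order), Tmie (3.35 ± 0.203, 3.54 ± 0.344 and 0.708 ± 0.166 FPKM) and the oncostatin M receptor Osmr (19.4 ± 4.8, 16.8 ± 1.6 and 6.47 ± 0.31 FPKM) were low in OGP, and Glt8d2 (0.378 ± 0.054, 0.312 ± 0.0819 and 1.93 ± 0.199 FPKM) was high. These 6 genes were picked for the largest OGP difference, so their nearness of OGE to control is a description.

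Of the genes that the study names and that passed the level for testing, Vegfa was higher and Irf7, Cxcl12, Cited2 and Stat3 were lower, as given above for all but Cited2, a coactivator that restrains HIF-1, which went from 97.9, 138 and 124 to 55.3, 54.7 and 59.6 FPKM (-1.06 ± 0.12). Hif1a was at 123, 78.9 and 84.4 FPKM in control and 98.6, 111 and 77.2 FPKM in OGE (0.01, 95% interval -0.39 to 0.42) with OGP at 49.1, 56.7 and 55 FPKM. Irf3 (0.08, -0.21 to 0.38) and Cebpa (0.16, -0.30 to 0.62) were not called, and Trim24, at 0.38, had an adjusted p of 0.042 and a fold below 1.5. Pgr and Cxcr4 were below the level tested. The study derived the regulators among these genes from the same libraries, so that their values here are not independent evidence, while Vegfa, Cxcl12 and Cxcr4 are on the list because it measured their proteins in mouse brain.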

How the data were processed

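RNA-seq was measured in 9 libraries of HT22 cells, and 6 of them (control and OGE) are compared. The labels give poly-T selection and an RNeasy kit, the study's methods TRIZOL, and strand is not stated, so overlapping and antisense genes cannot be told apart. The authors sequenced 150 bp paired ends, aligned with HISAT2 2.0.5 to mm10 and counted with featureCounts v1.5.0-p3; for the step from reads to FPKM no tool is given in the sources used here. The deposited values are FPKM of 54532 genes, of which 26719 were at 0 in every library. FPKM times gene length gave whole reads for 100% of values within 0.1, and their sums per library are the depths given, which with 3 libraries a group limit the precision of low genes.

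Genes averaging 0.5 FPKM or more across all 9 libraries were fitted with limma 3.58.1 in R 4.3.3 on log2(FPKM + 0.5), with a trended prior variance and 3 groups in 1 model with 6 residual degrees of freedom. Adjusted p-values are Benjamini-Hochberg values over all 13245 genes, and SE and 95% intervals come from that fit. Its calls and fold changes were tested on simulated reads with the same dispersion for every gene and no library effect, and its SE and intervals were not. The members and lists were chosen with earlier results of these data known. Lists are described by counts and medians. Named were the 15 highest and 15 lowest protein-coding DEGs, the 10 most abundant DEGs, up to 6 DEGs of each list by p, 6 genes a direction beyond both other groups, 6 called in OGP with OGE near control, and the genes the study names; other members of the lists were named after their values were seen, and some genes are not reported here. By symbol and chromosome, 7240 of the genes tested matched a RefSeq promoter (GRCm38.p6). Alternatives changed the pseudocount, filter, scaling, variance prior, libraries, replicate block, fold threshold and test (voom on the recovered reads).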

Additional observations from a re-analysis of the deposited data

How the results depend on the processing

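The 1519 DEGs (681 higher, 838 lower) became 3287 (1550 and 1737) without a fold threshold and 530 (219 and 311) at a fold of at least 2. Leaving out 1 library gave 1342 to 2017 DEGs, 565 to 915 higher and 759 to 1102 lower, most without control replicate 1. With control replicate 1 and OGE replicate 3 left out together there were 2267 DEGs, 980 higher and 1287 lower, and the cause was not tested. These libraries held the lowest and highest FPKM of the gene Gm23935, 1540 in control replicate 1 and 17879 in OGE replicate 3. The other libraries compared held 3858 to 6253 FPKM of it, and its part was not tested. The difference in the mitochondrial share of reads ranged from 0.691 to 1.29 percentage points without 1 library. The other settings (another pseudocount, filter, scaling or variance prior, protein-coding genes, 6 libraries or voom) gave counts within 1.5 times of these, but with voom on the recovered reads 940 were higher and 899 lower, so the larger number of lower DEGs did not hold there. Of the 122 DEGs named by the rule, 103 were called under every alternative other than the fold thresholds, 19 lost the call under some, and 0 reversed. List members named outside that rule are not in this count.

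Genes that were not called changed sign as follows. Without 1 library, Tmie ranged from -0.00091 to 0.111, Osmr from -0.333 to 0.00266, Hif1a from -0.108 to 0.212 and Irf3 from -0.0496 to 0.158. In the 6 libraries without control replicate 1, Osmr was 0.00266 and Irf3 -0.0318. With control replicate 1 and OGE replicate 3 left out together, Osmr was 0.0741, Irf3 -0.166 and Cebpa -0.0934. Over all alternatives but the fold thresholds, the log2 fold change of Hif1a reached at most 0.357, below the 1.5-fold threshold. Its lowest adjusted p among them was 0.020 by limma.

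With the replicate number as a block there were 1484 DEGs (668 higher, 816 lower). The numbers were not taken as pairs, since the deviations of same-numbered control and OGE libraries correlated at 0.14, -0.12 and 0.32. The block ended the calls of mt-Nd4, mt-Cytb, mt-Nd5 and Hlf.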

Other observations

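Long noncoding genes, most of them with low values, were higher in OGE more often than lower. Of 856 tested, 109 were higher and 27 lower, with a median of 0.19, against 512 higher and 768 lower of 11003 protein-coding genes with a median of -0.02. Among lincRNAs 39 of 262 were higher and 8 lower. The classes differ in level, with a median control value of 1.1 FPKM for lincRNAs and 8.9 FPKM for protein-coding genes, and the part of the level was not tested. Genes were kept by their mean over all 9 libraries, most of which are OGP or OGE. Low genes that are higher after OGD pass that filter more readily, which can tilt these counts towards higher. In OGP the lincRNA median against the same control libraries was 0.23, beside 0.226 in OGE.

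The 16 long noncoding DEGs with a symbol of their own, which passed the same filter, were all higher. Gas5, a host gene of small nucleolar RNAs, was at 23.5, 23.1 and 23.8 FPKM in control, 41.8, 36.3 and 45.4 FPKM in OGE and 41.5, 40.7 and 45.5 FPKM in OGP (0.79 ± 0.09, adjusted p = 2.9e-04 by limma). Other snoRNA host genes behaved alike in direction: Snhg1 was at 13.9 ± 1.33 FPKM in control and 21.9 ± 1.96 FPKM in OGE, Snhg5 at 11.8 ± 2.46 and 17.9 ± 2.16 FPKM, and Snhg15 at 6.36 ± 0.707 and 10.3 ± 2.41 FPKM (mean ± SD, n = 3). Mir17hg, the host of the miR-17 cluster, was at 1.64, 1.1 and 1.11 FPKM in control and 4.11, 3.91 and 3.77 FPKM in OGE. Its OGP libraries were at 3.66, 3.3 and 4.36 FPKM, also above the control libraries. Ptgs2os2 and Wincr1 were at 4.47 ± 1.6 and 5.35 ± 1.01 FPKM in control and 10.2 ± 0.71 and 13.3 ± 2.23 FPKM in OGE, with OGP at 5.38 ± 0.721 and 6.7 ± 1.34 FPKM. These genes were chosen after their values were seen.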
